A study of Mus musculus with 12 samples.

Results

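The comparison described here asked how oxaliplatin (Oxali) changed gene expression when it was added to the higher of 2 doses of interferon γ (IFNγ). It consists of the 2 libraries of cells treated with Oxali at 2 μM plus IFNγ at 2000 pg for 48 h (Combo2000, replicates 2 and 3) and the 2 libraries of cells treated with IFNγ at 2000 pg alone for 48 h (IFN2000, replicates 2 and 3), 4 of the 12 libraries of the study. They were chosen by sample title. All were made from Myc-CaP cells, an established line from a prostate tumour of a male FVB/NJ mouse that carries a Myc transgene, so every group shares the same genotype and the results describe 1 line. The labels give the IFNγ dose as a mass with no volume. The remaining groups, with 2 libraries each, were untreated cells (Ctrl), Oxali alone, IFNγ at 200 pg alone (IFN200) and Oxali plus IFNγ at 200 pg (Combo200). Nothing in the labels says whether the 2 libraries of a group came from separate cultures, so the tests measure the spread between libraries, which may be technical. A second label names another treatment than the title for the single treatments: under it the IFN2000 libraries would be IFNγ 200 pg, and the Oxali libraries IFNγ 2000 pg. Titles were followed throughout. On the first principal component of all libraries, which held 74.8% of the variance, the libraries titled IFN2000 lay at -42.0 and -43.1, those titled IFN200 at -43.0 and -43.6 and Ctrl at -46.0 and -46.7. The libraries titled Oxali lay at 36.6 and 36.6, on the side of the combinations, of which Combo2000 lay at 50.73 and 49.97.

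Oxaliplatin is a platinum drug that binds DNA and crosslinks its bases, which blocks replication and transcription and can activate p53 and NF-κB. IFNγ signals through a receptor of IFNGR1 and IFNGR2 chains, and the kinases JAK1 and JAK2, a pathway that turns on IRF1, guanylate binding proteins and the machinery that cuts, transports and loads peptides onto major histocompatibility complex (MHC) molecules. NF-κB, a family of dimers held in the cytoplasm by IκB proteins, drives chemokine genes and cooperates with IRF1 and NLRC5 at MHC-I genes. Tumour cells with low MHC-I escape cytotoxic T cells, which is why such genes are read in this prostate cancer line.

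The 4 libraries held 24367284 and 23496492 counts (IFN2000) and 25931516 and 22329954 counts (Combo2000), and all 12 lay between 18749975 and 25931516. Levels are given as CPM, the counts scaled by edgeR to the effective library size, and 3 counts, the limit that a count of 0 allows, correspond to 0.111 to 0.134 CPM in these 4 libraries (counting error only). One library stood apart. Of 13 T cell markers, 11 were above 3 counts in IFN2000 replicate 2 (495 counts in sum), against 2 in replicate 3 (26 counts in sum) and 3 in each Combo2000 library (79 and 77 counts in sum). In that library Gzmb, a cytotoxic granule protease, was at 175 counts, Ifng itself at 117 counts and Cd3d at 13 counts. In replicate 3 and in both Combo2000 libraries these 3 genes were at 0. Relative to Ctrl, expression in IFN2000 also fell with transcript length, with Spearman correlations across genes of -0.37 for replicate 2 and -0.20 for replicate 3, while the Combo2000 values were 0.098 and 0.051. A second library, IFN200 replicate 1, held 279 counts of 12 heart muscle markers, against 27 to 125 in these 4 libraries. Combo200 replicate 3 held 9 counts of Ifng and 7 of Gzmb, against 0 of each in Combo200 replicate 2. Of the markers of prostate luminal cells, Foxa1, Hoxb13 and Krt8 were expressed, whereas Epcam was at 0 in all 12 libraries and Krt18 and Cdh1 did not exceed 6 counts in any. Bulk libraries cannot tell fewer cells of a kind from less RNA per cell.

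Adding Oxali to IFNγ at 2000 pg changed most of the transcriptome, and the largest changes were rises. Of 13177 genes tested, 9522 were called at an adjusted p under 0.05 (edgeR), which is 72.3% of those tested. 5068 genes were higher in Combo2000 (38.5% of those tested) and 4454 were lower (33.8%). At least 2-fold changes were seen for 1651 higher and 554 lower genes, at least 4-fold for 571 and 64, and at least 8-fold for 218 and 9. The 2 groups did not overlap for 84.4% of genes tested, so separation of the 4 libraries is common and marks no gene as unusual. With so many genes called, the share of a list that was called has to be read against these percentages. Without IFN2000 replicate 2, 8586 of the 9521 called genes that were still tested were called in the same direction, 934 were not called and 1 was called in the opposite direction.

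**Figure D1:**
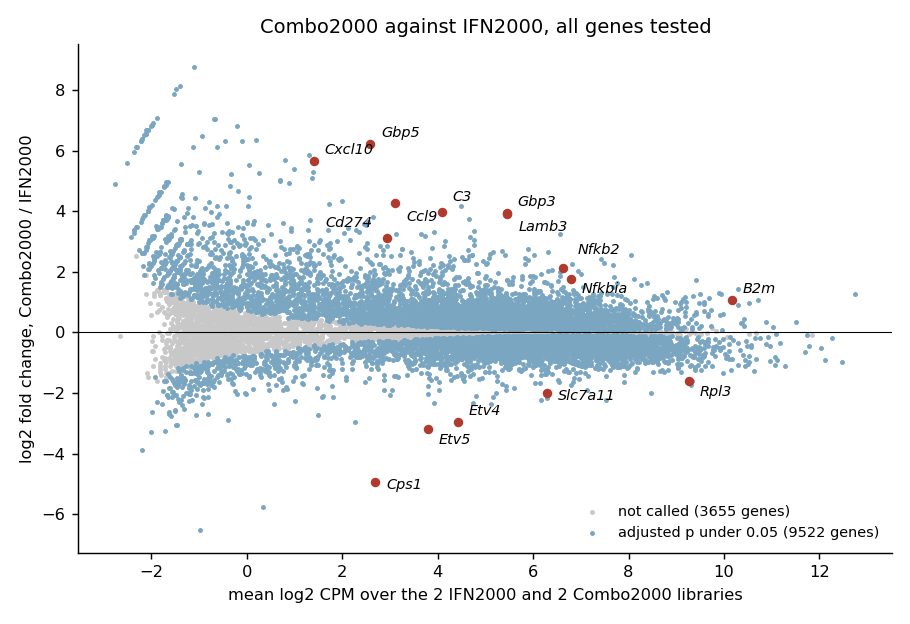
Each point is 1 of the 13177 genes tested, with its mean log2 CPM over the 2 IFN2000 and 2 Combo2000 libraries on the x axis and the log2 fold change of Combo2000 over IFN2000 on the y axis; the 9522 called genes are blue and 15 genes named in the text are red. Rises reach further from 0 than falls, and Cps1 stands alone among well expressed genes below -4; the lines of points at the far left are genes with almost no counts in one group, whose fitted values are not bounds.

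Ccl9, Nfkb2 and Cps1 are described first, and each also changed with Oxali alone, as given below. Ccl9, a chemokine for cells that carry CCR1 (chromosome 11, 83572919 to 83578636, GRCm38), was at 2.14 and 1.70 CPM in IFN2000 and at 36.9 and 37.8 CPM in Combo2000. Both Combo2000 libraries were far above both IFN2000 libraries, with a log2 fold change of 4.27 ± 0.11 (SE, n = 2 against 2; edgeR adjusted p = 2.98e-17). Nfkb2, which encodes the p100 precursor of the p52 subunit of NF-κB (chromosome 19, 46304320 to 46312385), rose from 49.3 and 45.8 CPM to 210.1 and 203 CPM. Its log2 fold change was 2.12 ± 0.04 (edgeR adjusted p = 2.73e-18). Cps1, the mitochondrial enzyme that makes carbamoyl phosphate for the urea cycle (chromosome 1, 67123026 to 67231259), fell from 31.9 and 37.5 CPM to 1.26 and 0.991 CPM. That was a log2 fold change of -4.92 ± 0.15 (edgeR adjusted p = 6.33e-16), the largest fall above a mean level of 1 log2 CPM.

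**Figure D2:**
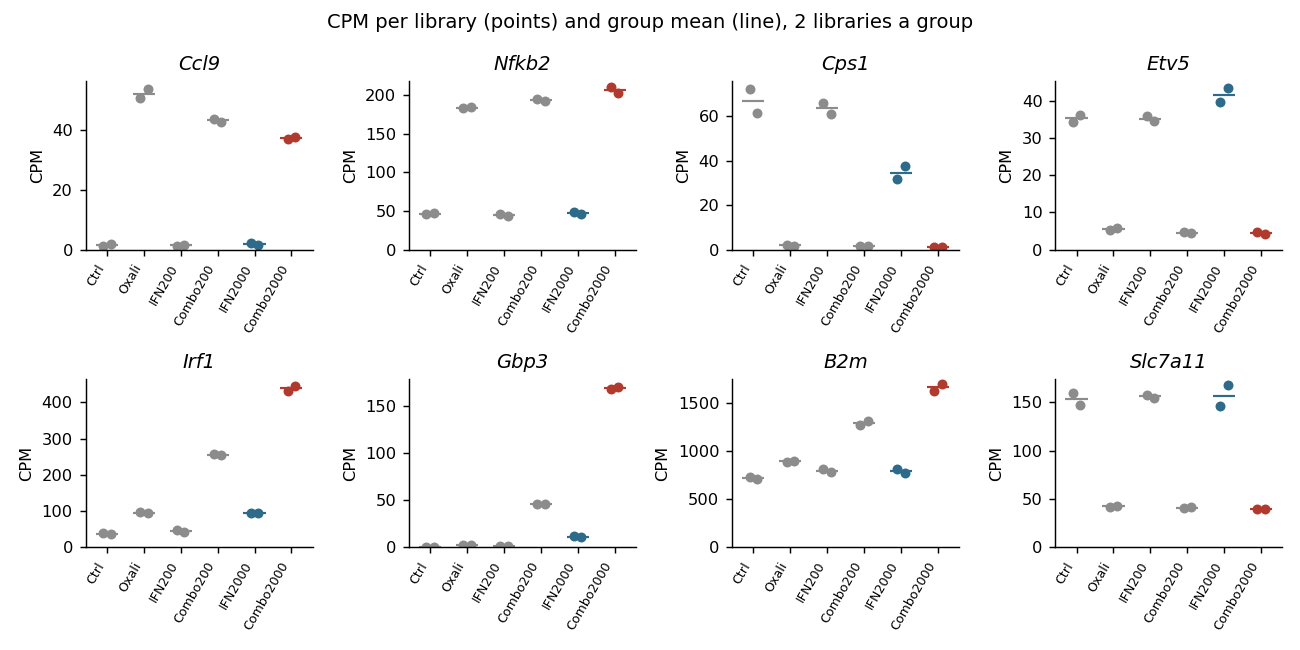
CPM of 8 genes in each of the 12 libraries, with 1 point per library, a line at the mean of each group of 2 and axes that start at 0; IFN2000 is blue and Combo2000 red. Ccl9, Nfkb2, Cps1, Etv5 and Slc7a11 shift in every group that holds Oxali, as do Irf1, Gbp3 and B2m, which are highest in Combo2000.

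Apart from Ccl9, the 10 largest rises above a mean level of 1 log2 CPM (gene models without a name left out) were led by genes that interferon is known to induce. Gbp5, a guanylate binding protein that acts on vacuoles of pathogens and on the inflammasome, went from 0.685 and 0.625 CPM to 51.6 and 46.0 CPM (log2 fold change 6.21 ± 0.15). Gbp4 of the same family went from 0.428 and 0.357 CPM to 13.8 and 13.6 CPM (5.10 ± 0.21), and Iigp1, an immunity-related GTPase, from 5.18 and 5.27 CPM to 91.0 and 99.4 CPM (4.18 ± 0.08). Cxcl10, a ligand of CXCR3 on T cells, reached 16.6 and 17.2 CPM from 0.300 and 0.357 CPM (5.66 ± 0.20). The MHC class II invariant chain Cd74 reached 14.7 and 15.2 CPM from 0.385 and 0.357 CPM (5.31 ± 0.22). Complement genes were among them as well: C1s1, the C1s protease, rose to 16.8 and 16.6 CPM from 0.214 and 0.357 CPM (5.85 ± 0.22) and C3, the central component, to 71.4 and 62.8 CPM from 4.41 and 4.06 CPM (3.99 ± 0.10). Apol9a, an apolipoprotein L gene, rose to 13.2 and 14.0 CPM from 0.857 and 0.580 CPM (4.22 ± 0.18). Lamb3, a laminin chain of the basement membrane, rose from 10.7 and 11.7 CPM to 171 and 173 CPM (3.94 ± 0.05). Among these genes the highest edgeR adjusted p was 6.41e-14, for Apol9a, which has a close paralog with which it may share reads, as the Gbp genes do with each other. The filter on low counts could be passed through other groups alone. Gbp4, Cxcl10, Cd74 and C1s1 were low enough in IFN2000 that they could be tested because they were high with Oxali. For these genes a rise was in part set by the filter, which the adjusted p does not take into account.

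The other 9 of the 10 largest falls had another make-up. Etv5 and Etv4, ETS transcription factors that growth factor signalling through ERK induces, fell from 39.8 and 43.4 CPM to 4.74 and 4.27 CPM and from 62.6 and 55.7 CPM to 7.30 and 8.02 CPM. Their log2 fold changes were -3.20 ± 0.08 and -2.95 ± 0.09. Keratin genes of stratified epithelium followed: Krt76 was at 13.4 and 12.7 CPM in IFN2000 and at 1.78 and 1.59 CPM in Combo2000 (-2.94 ± 0.14), Krt79 at 6.98 and 6.83 against 1.07 and 0.991 CPM (-2.73 ± 0.18), and Krt78 at 76.7 and 79.1 against 14.2 and 16.5 CPM (-2.35 ± 0.07). Dera, an aldolase of deoxyribose phosphate, fell from 34.99 and 33.30 CPM to 6.96 and 6.42 CPM (-2.35 ± 0.08). Rpl22l1, a ribosomal protein paralog, fell from 61.8 and 56.9 CPM to 11.3 and 12.4 CPM (-2.33 ± 0.07), and Fubp1, a DNA-binding activator of Myc, from 162 and 151 CPM to 34.5 and 31.6 CPM (-2.24 ± 0.07). Arl5c, an ARF-like GTPase, was at 4.24 and 4.42 CPM in IFN2000 and at 1.15 and 0.603 CPM in Combo2000 (-2.27 ± 0.24). In all of these both Combo2000 libraries lay below both IFN2000 libraries, and the highest edgeR adjusted p was 4.84e-08, for Arl5c.

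The genes of the NF-κB system were described by role. Of 19 tested members of a list of subunits and regulators, 15 rose and 2 fell, with a median log2 fold change of 0.69 against 0.03 over all genes tested. Among the subunits, Relb, the partner of p52 in the alternative pathway, went from 4.88 and 3.26 CPM to 40.6 and 37.2 CPM (3.25 ± 0.11). Rela, the p65 subunit of the classical pathway, was at 88.7 and 84.7 CPM in IFN2000 and at 119.5 and 128 CPM in Combo2000 (0.51 ± 0.05), and Nfkb1, which encodes p105 and p50, was at 119 and 121 against 135 and 131 CPM (0.15 ± 0.04). The rise was therefore 2.12 and 3.25 on the log2 scale for Nfkb2 and Relb of the alternative pathway. For Rela and Nfkb1 of the classical pathway it was 0.51 and 0.15. The value of Rel, a further subunit gene on the list, is not given here. Genes that encode IκB proteins moved as well. Nfkbie and Nfkbia, which encode IκBε and IκBα, rose from 1.54 and 1.61 CPM to 15.7 and 15.8 CPM (3.32 ± 0.12) and from 59.9 and 60.9 CPM to 207 and 203 CPM (1.76 ± 0.04). Nfkbib, which encodes IκBβ, fell by 0.48 on the log2 scale, and the IKKα kinase gene Chuk fell by 0.40. Among all 17 called members the highest edgeR adjusted p was 0.00133, for Nfkb1, while Traf3 (0.08 ± 0.05, adjusted p = 0.165) and Nfkbiz (-0.15 ± 0.09, adjusted p = 0.142) were not called.

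The bases upstream of these genes were read for a κB match, because the NF-κB list moved together. The letters searched were GGGA and CC with any 4 bases between them for a κB match, TTC and GAA with any 3 between them for a γ-activated sequence (GAS, a kind of site through which IFNγ acts) and GAAA and GAAA with any 2 between them for an interferon-stimulated response element (ISRE, the kind that IRF factors bind), on both strands, in the 250 bases before each RefSeq start of the build GRCm38.p6. A κB match stood in 17.6% of 32851 such windows, a GAS match in 7.02% and an ISRE match in 2.98%. Of the 20 genes of the NF-κB list 16 had a window, and in 8 of them (50%) the first listed start had a κB match. For 18 of the 26 genes of the IFNγ response list with a window, 10 had an ISRE match (55.6%), 8 a GAS match (44.4%) and 3 a κB match (16.7%). In the chemokine list 8 of 17 genes had a κB match (47.1%). A match is only a stretch of letters, and it was not tested whether any factor bound there. In Nfkb2 the first start had κB matches that begin 39 and 10 bases before it (chr19:46304688-46304717 and chr19:46304717-46304736). Both stretches lie inside the span of Nfkb2 in GENCODE M21 given above, which starts upstream of this RefSeq start. The window of this start also held 1 GAS match, which is not shown. The κB stretches are shown here 5′ to 3′ on the strand of the gene with the match in capitals.
Nfkb2, distal match: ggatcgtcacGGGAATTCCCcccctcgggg
Nfkb2, proximal match: gggccgaaagGGGCTTTCCC

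Whole windows are shown for 4 genes of these lists that rose, to set the kinds of match side by side: an inhibitor of NF-κB (Nfkbia, chr12:55492648-55492897, minus strand), a growth factor of macrophages (Csf1, chr3:107760470-107760719, minus strand), a chemokine (Cxcl10, chr5:92348890-92349139, minus strand) and an interferon-induced transcription factor (Irf1, chr11:53769764-53770013, plus strand). They are written 5′ to 3′ on the strand of the gene, and capitals mark every match to the κB, GAS or ISRE letters. Nfkbia held 2 κB matches, Csf1 held 3 of which 2 overlap, Cxcl10 held an ISRE match followed by 2 κB matches, and Irf1 held a GAS match followed by 1 κB match. Ccl9 held none of the 3 in this window, and neither did Nfkbie, which also rose. Cxcl1, which fell, held 3 κB matches. All 4 windows shown hold a κB match, and whether matches go with rises was not tested.
Nfkbia: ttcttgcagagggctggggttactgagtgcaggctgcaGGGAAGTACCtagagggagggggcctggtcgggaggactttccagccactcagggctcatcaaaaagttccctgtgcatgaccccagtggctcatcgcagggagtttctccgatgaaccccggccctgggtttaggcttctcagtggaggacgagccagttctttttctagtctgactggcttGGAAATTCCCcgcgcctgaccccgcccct
Csf1: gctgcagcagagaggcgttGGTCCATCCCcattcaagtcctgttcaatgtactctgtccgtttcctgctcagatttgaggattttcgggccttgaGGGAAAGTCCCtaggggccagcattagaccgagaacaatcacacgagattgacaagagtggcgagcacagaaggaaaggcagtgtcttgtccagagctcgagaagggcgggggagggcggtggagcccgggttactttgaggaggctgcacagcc
Cxcl10: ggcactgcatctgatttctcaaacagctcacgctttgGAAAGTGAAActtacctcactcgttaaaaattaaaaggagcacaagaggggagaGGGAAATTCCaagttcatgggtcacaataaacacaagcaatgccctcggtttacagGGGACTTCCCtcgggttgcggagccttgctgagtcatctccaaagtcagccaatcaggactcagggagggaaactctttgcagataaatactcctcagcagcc
Irf1: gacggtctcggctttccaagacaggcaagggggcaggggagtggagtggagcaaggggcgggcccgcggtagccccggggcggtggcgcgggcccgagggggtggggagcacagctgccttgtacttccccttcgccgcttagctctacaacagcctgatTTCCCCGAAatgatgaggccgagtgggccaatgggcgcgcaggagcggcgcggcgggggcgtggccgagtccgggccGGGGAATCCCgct

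Secreted signals and complement rose in most but not all cases. Of 13 tested chemokines and cytokines of 25 listed, 10 rose and 3 fell (median log2 fold change 1.78), and all 5 tested complement genes of 13 listed rose (median 3.59). The filter asked for counts in any 2 libraries, so a gene low in IFN2000 could be tested because it was high with Oxali. For such genes a rise was in part set by the filter. Csf1 was at 25.5 and 27.9 CPM in IFN2000 and at 155 and 157 CPM in Combo2000 (2.54 ± 0.05, edgeR adjusted p = 1.21e-18). The other 2 ligands of CXCR3 were near 0 in IFN2000, with 1 and 2 counts for Cxcl11 and 1 and 0 for Cxcl9, against 146 and 137 and against 93 and 87 counts in Combo2000. The ratio of their summed CPM was 86.0 (95% exact binomial interval of the counts 29.1 to 419) for Cxcl11 and 164 (29.1 to 6516) for Cxcl9, with intervals that cover counting error only. The 3 that fell were Cxcl5 (-1.02 ± 0.09) and Cxcl1 (-0.56 ± 0.18, not called without IFN2000 replicate 2 or with DESeq2), which attract neutrophils, and the alarmin Il33 (-0.32 ± 0.05), so the direction differed between ligands of CXCR3 and these ligands of CXCR2. Tnf, whose product activates NF-κB, was at 146 counts in IFN2000 replicate 2, at 0 in replicate 3 and at 1 and 0 counts in Combo2000, and the part of the T cell reads in it was not tested. C1ra, the C1r protease, was at 2.06 and 1.96 against 12.3 and 12.4 CPM (2.61 ± 0.13) and C4b at 0.428 and 0.134 against 3.52 and 3.45 CPM (3.59 ± 0.40).

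The path from the IFNγ receptor onwards was higher with Oxali at most steps. Of 17 tested members of the receptor, kinase and feedback list, 14 rose and 3 fell (median 0.34). Ifngr2, the signalling chain of the receptor, rose from 0.985 and 0.893 CPM to 5.56 and 5.39 CPM (2.54 ± 0.22, edgeR adjusted p = 2.14e-09). Ifngr1, the chain that binds the ligand, was at 37.7 and 36.8 CPM in IFN2000 and at 61.2 and 62.0 CPM in Combo2000 (0.72 ± 0.05). The kinase genes Jak2 and Jak1 rose by 0.80 ± 0.04 and 0.28 ± 0.04 on the log2 scale. Feedback genes rose too: Usp18 was at 0.857 and 0.580 CPM against 7.41 and 7.54 CPM (3.36 ± 0.20), and Socs1, which blocks JAK kinases, at 2.61 and 3.30 against 11.6 and 12.03 CPM (1.99 ± 0.14). The 3 that fell were Socs3 (-0.36 ± 0.07), Ifnar1 (-0.25 ± 0.05), a chain of the receptor for type I interferon, and the phosphatase gene Ptpn11 (-0.11 ± 0.04).

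All 26 genes of the IFNγ response list passed the filter and rose, with a median log2 fold change of 2.32, and all 26 were also called higher with upper-quartile scaling, with DESeq2, with a correction for transcript length and GC content and without IFN2000 replicate 2. Gbp3 went from 11.5 and 10.8 CPM to 168 and 169.9 CPM (3.92 ± 0.05, edgeR adjusted p = 4.18e-21). Gbp9 went from 0.214 and 0.179 CPM to 10.0 and 11.1 CPM (5.70 ± 0.25). Gbp6 was at 0 in both IFN2000 libraries and at 34 and 30 counts in Combo2000, at least 9.73-fold higher when IFN2000 is set at 3 counts per library. Genes as low in IFN2000 as Gbp9 and Gbp6 could pass the filter through other groups alone. Their part in the count of 26 was therefore in part set by the filter. The transcription factor Irf1 was at 94.6 and 93.9 CPM in IFN2000 and at 432 and 445 CPM in Combo2000 (2.22 ± 0.04). At the low end stood Ido1, which degrades tryptophan, at 17.1 and 15.4 against 21.6 and 22.1 CPM (0.42 ± 0.07, edgeR adjusted p = 4.92e-05). The list was chosen with results of these data known, and the count is a description.

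Antigen presentation by MHC class I rose from transcription factor to peptide loading. Of 20 tested genes of the list 16 rose and 2 fell, with a median log2 fold change of 1.19. Nlrc5, the activator of class I genes, went from 3.17 and 2.68 CPM to 17.97 and 16.3 CPM (2.55 ± 0.14, edgeR adjusted p = 4.54e-12). The immunoproteasome subunit gene Psmb8 rose from 6.30 and 4.95 CPM to 39.3 and 38.2 CPM (2.78 ± 0.09) and Psmb9 from 14.6 and 13.2 CPM to 84.4 and 82.8 CPM (2.59 ± 0.06). For the peptide transporter, Tap1 rose from 14.8 and 13.9 CPM to 79.4 and 76.8 CPM (2.45 ± 0.07) and Tap2 from 15.1 and 16.7 CPM to 101 and 105 CPM (2.698 ± 0.06). Psmb9 and Tap1 overlap at their ends on opposite strands of chromosome 17; the library kit keeps strand, but whether counting used it is not given in the sources used here. The light chain gene B2m was at 817 and 769 CPM in IFN2000 and at 1622 and 1702 CPM in Combo2000 (1.07 ± 0.04), and the heavy chain genes H2-K1 and H2-D1, which may share reads with other H2 genes, rose by 1.199 ± 0.04 and 1.08 ± 0.04 on the log2 scale. The 2 that fell act in the endoplasmic reticulum, the folding enzyme gene Pdia3 (-0.21 ± 0.04) and Sec22b (-0.44 ± 0.04), a trafficking gene, while the chaperone genes Canx and Calr were not called (-0.03 ± 0.03 and -0.06 ± 0.04).

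MHC class II genes rose at low levels. All 5 tested members of 11 listed rose (median 3.10), and the other 6 had at most 11 counts in any of the 4 libraries. Genes as low in IFN2000 as those named below could pass the filter through other groups alone. Their shared direction was therefore in part set by the filter. Ciita, the class II transactivator, was at 0.171 and 0.179 CPM in IFN2000 and at 1.78 and 1.77 CPM in Combo2000 (3.30 ± 0.41, edgeR adjusted p = 5.96e-07). H2-DMb2 and H2-DMb1, chains of the peptide exchanger of class II, rose from 0.300 and 0.134 CPM to 1.93 and 1.90 CPM (3.10 ± 0.34) and from 0.428 and 0.446 CPM to 2.07 and 1.94 CPM (2.19 ± 0.30). The chains that form the class II molecule itself stayed near the floor, with 0, 0, 11 and 4 counts of H2-Aa across the 4 libraries and 0 of H2-Eb1 in each.

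Of 19 tested antiviral genes and sensors of nucleic acid, 18 rose and 1 fell (median 1.72). In IFN2000, 3 of the 19 had at most 3 counts in each library and passed the filter only through other groups. Oasl2, of the oligoadenylate synthetase family, was at 3.38 and 2.23 CPM in IFN2000 and at 27.5 and 25.8 CPM in Combo2000 (3.24 ± 0.13, edgeR adjusted p = 2.65e-14). Zbp1, a sensor of Z-form nucleic acid that can start necroptosis, was at 1 and 0 counts against 58 and 37 counts, a ratio of summed CPM of 86.6 (95% exact binomial interval of the counts 15.2 to 3456). Oas2 was at 3 and 2 against 51 and 52 counts (ratio 18.8, interval 7.79 to 59.1) and Rsad2, which encodes viperin, at 1 and 2 against 17 and 15 counts (ratio 9.72, interval 3.04 to 49.6). Dhx58, a helicase that modulates the RIG-I pathway, was the 1 that fell, from 0.899 and 0.893 CPM to 0.519 and 0.345 CPM (-1.02 ± 0.34, edgeR adjusted p = 0.0111, and 0.0952 with DESeq2). The rise of Cgas, the DNA sensor, was 0.14 ± 0.06 and was not called without IFN2000 replicate 2 or with DESeq2.

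Among ligands that T cells and NK cells read, 6 of 10 tested rose and 1 fell (median 0.46). Cd274, which encodes PD-L1, rose from 3.30 and 1.87 CPM to 23.006 and 22.3 CPM (3.12 ± 0.13, edgeR adjusted p = 6.99e-14). Icam1, an adhesion ligand of T cells, went from 2.01 and 1.25 CPM to 9.04 and 8.88 CPM (2.45 ± 0.17), Vtcn1 (B7-H4) from 0.514 and 0.580 CPM to 1.78 and 1.59 CPM (1.62 ± 0.29), and Cd47, a signal against phagocytosis, from 106 and 106 CPM to 198 and 187 CPM (0.87 ± 0.04). Tnfsf9, the ligand of 4-1BB, fell by 0.79 on the log2 scale (SE 0.16). In the list of TNF ligands and receptors 6 of 12 tested rose and 3 fell. The receptor gene Tnfrsf9 was at 7.07 and 5.36 against 50.9 and 50.4 CPM (3.02 ± 0.09), the death ligand Tnfsf10 (TRAIL) at 7.02 and 5.94 against 46.9 and 47.0 CPM (2.85 ± 0.08), and the death receptor Tnfrsf10b at 54.9 and 50.8 against 105 and 102 CPM (0.97 ± 0.04). The median of that list was 0.10 with all libraries and 0.66 without IFN2000 replicate 2, where Lta and Ltb, which lymphocytes express, had 1.199 and 0.942 CPM against 0 in replicate 3.

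**Figure D3:**
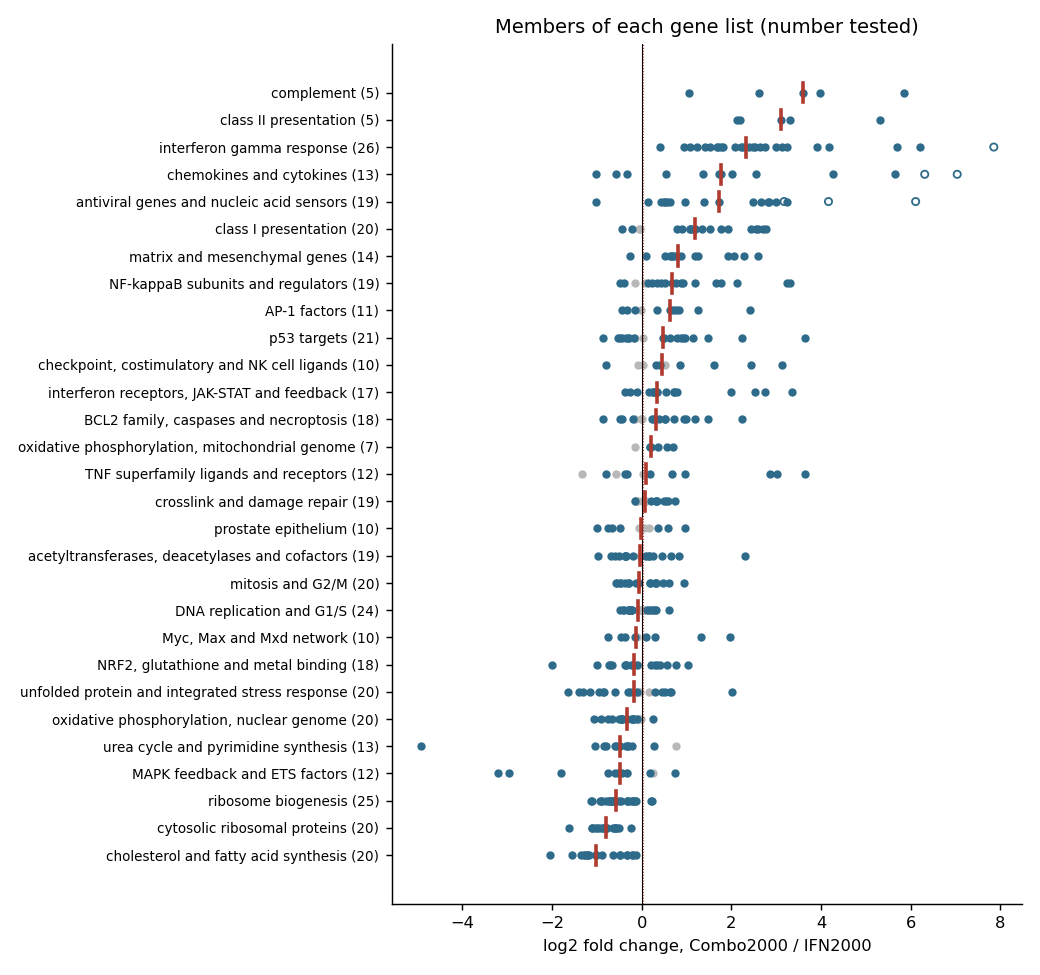
Log2 fold change of Combo2000 over IFN2000 (x axis) for each tested member of the 29 lists (y axis, number tested in brackets); called members are blue, those not called grey, open circles are members with at most 3 counts in each IFN2000 library, whose position depends on the fit, red bars are list medians and the dotted line is the median of all genes. Complement, class II and IFNγ response genes lie furthest to the right, and cholesterol synthesis, ribosomal protein and ribosome biogenesis genes furthest to the left.

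The p53 targets did not move as 1 group. Of 21 tested, 11 rose and 8 fell, with a median of 0.48. Fas, the death receptor, was at 0.171 and 0.312 CPM in IFN2000 and at 2.93 and 3.23 CPM in Combo2000 (3.65 ± 0.35, edgeR adjusted p = 1.24e-08). Trp53inp1 rose from 2.27 and 3.35 CPM to 13.1 and 13.4 CPM (2.24 ± 0.15), Pmaip1, which encodes NOXA, from 58.9 and 59.6 CPM to 169 and 162 CPM (1.48 ± 0.04), and Eda2r, a receptor of ectodysplasin, from 2.23 and 2.72 CPM to 5.89 and 5.09 CPM (1.16 ± 0.17). Mdm2, which limits p53, and Cdkn1a, which encodes the cell cycle inhibitor p21, rose by 0.89 ± 0.05 and 0.79 ± 0.05 on the log2 scale. Bax, a pore-forming activator of apoptosis, was at 83.3 and 80.5 CPM in IFN2000 and at 44.0 and 46.5 CPM in Combo2000 and so fell (-0.86 ± 0.05, edgeR adjusted p = 1.42e-12).

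Repair and death genes showed smaller changes. Of 19 tested genes of crosslink and damage repair 8 rose and 1 fell (median 0.08). Fancd2, of the Fanconi pathway for crosslinks, rose from 46.3 and 46.8 CPM to 81.0 and 75.6 CPM (0.75 ± 0.05), and the nucleotide excision repair genes Ddb2 and Xpc rose by 0.59 ± 0.10 and 0.53 ± 0.05. Brca2 rose by 0.49 ± 0.08. In the BCL2, caspase and necroptosis list 11 of 18 rose and 4 fell (median 0.33). Beyond Pmaip1, these rises included the BH3-only gene Bcl2l11 (BIM), from 31.6 and 33.3 CPM to 66.2 and 63.4 CPM (1.00 ± 0.05), and Gsdmd, the pore former of pyroptosis, from 3.60 and 2.81 CPM to 7.45 and 7.24 CPM (1.19 ± 0.16). Casp4, whose protease cuts gasdermin D, was at 0.171 and 0.0893 against 0.741 and 0.517 CPM (2.23 ± 0.53, edgeR adjusted p = 0.00103, and 0.0541 with DESeq2).

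Targets and brakes of ERK signalling fell with Etv4 and Etv5. Of 12 tested members of the MAPK feedback and ETS list 8 fell and 2 rose (median -0.48). Spry4, a feedback inhibitor, went from 3.00 and 3.26 CPM to 0.852 and 0.948 CPM (-1.79 ± 0.25, edgeR adjusted p = 2.2e-06), and Spred2, of a related family, from 99.8 and 109 CPM to 64.7 and 58.8 CPM (-0.75 ± 0.05). The 2 that rose were Phlda1 (0.75 ± 0.06) and Ccnd1, which encodes cyclin D1 (0.18 ± 0.04). Of the 11 AP-1 factors, 7 rose and 3 fell (median 0.63). Junb was at 76.5 and 72.9 CPM in IFN2000 and at 181 and 175 CPM in Combo2000 (1.25 ± 0.06), Fosl2 at 147 and 155 against 262 and 253 CPM (0.77 ± 0.04), Fosb at 1.80 and 1.47 against 3.00 and 2.84 CPM (0.83 ± 0.19), and Batf3, which cooperates with IRF factors, at 0.385 and 0.670 against 2.63 and 3.02 CPM (2.41 ± 0.28). Without IFN2000 replicate 2 the counts were 6 and 1.

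Cps1 was the extreme of a list that mostly fell. Of 13 tested genes of the urea cycle and pyrimidine synthesis, 11 fell and 1 rose (median -0.48). The mitochondrial carriers Slc25a13, for aspartate and glutamate, and Slc25a15, for ornithine, fell from 144 and 143 CPM to 67.9 and 72.6 CPM (-1.03 ± 0.05) and from 53.2 and 54.2 CPM to 30.7 and 29.2 CPM (-0.84 ± 0.06). Uck2, a kinase of the uridine salvage pathway, fell from 283 and 286 CPM to 162 and 165 CPM (-0.80 ± 0.04). Cad, whose enzyme begins pyrimidine synthesis with its own carbamoyl phosphate, was at 838 and 955 CPM in IFN2000 and at 722 and 692 CPM in Combo2000 (-0.34 ± 0.05, edgeR adjusted p = 1.68e-06). Otc and Nags, the enzymes next to Cps1 in liver, were at 0 in all 4 libraries, and the value of Ass1 was 0.78 ± 0.58 with no call. Cps1 thus fell by more than any other tested member of its list.

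Genes of ribosome production fell as a block. All 20 tested cytosolic ribosomal protein genes were lower (median -0.80), and so were 23 of 25 tested ribosome biogenesis genes, with 2 higher (median -0.56). Rpl3 fell most of the 20 listed, from 1099 and 1038 CPM to 345 and 356 CPM (-1.61 ± 0.04, edgeR adjusted p = 9.04e-18), followed by Rpl7 (-1.11 ± 0.04), Rpl5 (-1.11 ± 0.04) and Rpl8 (-1.05 ± 0.04). The nucleolar genes Bop1, Fbl and Ncl, for the pre-ribosome, fibrillarin and nucleolin, fell by 1.13 ± 0.05, 1.11 ± 0.06 and 0.92 ± 0.03 on the log2 scale. Polr1e, a subunit of RNA polymerase I, fell from 44.5 and 42.7 CPM to 22.4 and 24.4 CPM (-0.90 ± 0.06). The 2 that rose were Nop14 (0.23 ± 0.05) and Polr1a (0.20 ± 0.04), the largest subunit of RNA polymerase I.

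All 20 tested genes of cholesterol and fatty acid synthesis fell as well, with a median of -1.01, of 21 listed. Insig1, which holds the SREBP complex in the endoplasmic reticulum and is itself an SREBP target, went from 28.1 and 28.0 CPM to 6.93 and 6.68 CPM (-2.04 ± 0.08, edgeR adjusted p = 2.04e-14). Fdps, of the mevalonate pathway, fell from 7.07 and 7.14 CPM to 2.56 and 2.24 CPM (-1.56 ± 0.14) and the desaturase gene Scd2 from 2401 and 2579 CPM to 1026 and 1011 CPM (-1.29 ± 0.03). The fall was smallest for Dhcr7 (-0.12 ± 0.05), which was not called without IFN2000 replicate 2.

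Nuclear genes of oxidative phosphorylation mostly fell, while those of the mitochondrial genome mostly rose in the main fit. Of 20 tested nuclear genes, 16 fell and 1, Cox6c, rose (median -0.33). Uqcrfs1 and Cyc1, subunits of complex III, fell by 1.07 ± 0.05 and 0.66 ± 0.04 on the log2 scale, and the ATP synthase genes Atp5c1 and Atp5a1 by 0.90 ± 0.04 and 0.76 ± 0.03. Of 7 tested genes of the mitochondrial genome, 6 rose and none fell, led by mt-Nd6 at 190.4 and 210.3 against 338 and 309 CPM (0.69 ± 0.07) and mt-Nd5 (0.57 ± 0.07). Without IFN2000 replicate 2, 3 of them rose and mt-Nd1 fell, so the direction of that list rests in part on 1 library, and the median moved from 0.22 to 0.11. With DESeq2 and all libraries, 3 of the 7 were called higher and none lower. Oxali alone gave 2 higher and 1 lower, and Combo200 against IFN200 gave none higher and 6 lower (median -0.50). The remaining 6 mitochondrial protein genes are listed at 0 in these libraries.

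The stress programmes were split. Of 20 tested genes of the unfolded protein and integrated stress responses, 11 fell and 6 rose (median -0.18). Ddit3, which encodes CHOP, rose from 6.12 and 4.33 CPM to 21.5 and 20.8 CPM (2.01 ± 0.11, edgeR adjusted p = 1.91e-12). Ddit3 and Asns are both known ATF4 targets. Asns, asparagine synthetase, fell from 429.5 and 421 CPM to 134 and 139 CPM (-1.64 ± 0.04), and Chac1, which degrades glutathione, from 30.1 and 31.8 CPM to 12.4 and 11.2 CPM (-1.39 ± 0.07). Xbp1 fell from 125 and 126 CPM to 48.7 and 52.1 CPM (-1.31 ± 0.04). Of 18 tested genes of NRF2, glutathione and metal handling, 10 fell and 7 rose (median -0.17). Slc7a11, the cystine importer, fell from 146 and 168 CPM to 39.1 and 39.1 CPM (-2.002 ± 0.06, edgeR adjusted p = 2.36e-16) and Gstp1, a glutathione transferase, from 63.5 and 60.1 CPM to 30.1 and 32.1 CPM (-0.99 ± 0.05). Mt2, a metallothionein, and Slc31a2, a copper transporter, rose by 0.77 ± 0.05 and 1.03 ± 0.05, whereas Slc31a1, the copper importer also discussed for platinum uptake, fell (-0.71 ± 0.04).

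Proliferation genes gave no common direction. Of 24 tested genes of DNA replication and G1/S 7 rose and 11 fell (median -0.09), and of 20 mitotic genes 8 rose and 9 fell (median -0.07). Cdc45, of the replicative helicase, rose from 79.0 and 78.8 CPM to 119.7 and 123 CPM (0.62 ± 0.04), while the helicase genes Mcm7 (-0.39 ± 0.04) and Gins1 (-0.48 ± 0.07) and the cyclin gene Ccne2 (-0.41 ± 0.05) fell. In mitosis, the spindle gene Nusap1 rose from 101 and 103 CPM to 196 and 195 CPM (0.94 ± 0.04) and Cenpe, a kinetochore motor, by 0.62 ± 0.06, and the cyclin A gene Ccna2 (-0.57 ± 0.04) and the kinase gene Plk1 (-0.54 ± 0.05) fell. Myc itself was at 138 and 136 CPM in IFN2000 and at 142 and 152 CPM in Combo2000 (0.10 ± 0.04, edgeR adjusted p = 0.0482, not called without IFN2000 replicate 2). Its antagonists moved more: Mxd4 rose from 13.5 and 15.04 CPM to 55.8 and 56.5 CPM (1.98 ± 0.08) and Mxd1 from 6.12 and 5.36 CPM to 13.3 and 15.5 CPM (1.32 ± 0.10). In that list of 10, 4 rose and 4 fell (median -0.12), with Mlxip (-0.74 ± 0.06) and Mlx (-0.47 ± 0.05) the largest falls.

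Identity and matrix genes were read last. Of 10 tested genes of the prostate epithelium list, 3 rose and 4 fell (median -0.0040). Foxa1, the pioneer factor of luminal cells, fell from 409 and 429.9 CPM to 215 and 208 CPM (-0.99 ± 0.04, edgeR adjusted p = 4.88e-14) and Fkbp5, an androgen-induced gene, from 643 and 671 CPM to 418 and 410.4 CPM (-0.66 ± 0.04). Krt14, a basal keratin, rose from 3.90 and 3.30 CPM to 7.30 and 6.90 CPM (0.98 ± 0.13). Of 14 tested matrix and mesenchymal genes, 13 rose and 1 fell (median 0.81). Ccn1, a matricellular signal, went from 81.6 and 81.1 CPM to 373 and 414 CPM (2.27 ± 0.06). Zeb1 was at 0.300 and 0.268 against 1.07 and 1.12 CPM (1.93 ± 0.38). Snai1, at 0 and 0.179 against 0.741 and 0.345 CPM, was called (2.59 ± 0.79, edgeR adjusted p = 0.00662) but not without IFN2000 replicate 2 or Combo2000 replicate 2, and the 1 that fell was Ccn2 (-0.26 ± 0.04).

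The study turns on histone acetyltransferases, so their genes were read too. Ep300, which encodes p300, was at 107 and 135 CPM in IFN2000 and at 133 and 122 CPM in Combo2000 (0.08 ± 0.07, edgeR adjusted p = 0.321), with overlapping groups. Crebbp, which encodes CBP, was at 54.8 and 71.2 against 92.0 and 79.0 CPM (0.44 ± 0.08), or 0.26 without IFN2000 replicate 2. Of the 19 tested acetyltransferases, deacetylases and cofactors 8 rose and 9 fell (median -0.04), without IFN2000 replicate 2 the counts were 5 and 9, and with a correction for transcript length and GC content 4 rose and 10 fell. Hdac11 rose from 1.28 and 0.982 CPM to 6.08 and 5.13 CPM (2.30 ± 0.20) and Kat6b from 46.5 and 48.9 CPM to 87.1 and 81.4 CPM (0.82 ± 0.05), while Hdac2 fell from 196 and 192 CPM to 98.7 and 99.7 CPM (-0.97 ± 0.04) and Hdac10 from 19.1 and 17.5 CPM to 11.8 and 10.9 CPM (-0.68 ± 0.08).

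Some genes went from near 0 to a clear signal, or the reverse. Among genes with at most 3 counts in each IFN2000 library, those highest in Combo2000 were Vcam1, an adhesion ligand of leukocytes (3 and 1 counts against 207 and 174), Cxcl11, Gm4951, an interferon-inducible GTPase model (1 and 1 against 145 and 133), Batf2, a partner of IRF1 (2 and 3 against 147 and 118), and Spib, an ETS factor known from B cells (1 and 1 against 111 and 86). The ratios of summed CPM were 86.8 for Vcam1 (95% exact binomial interval of the counts 33.6 to 320.3), 127 for Gm4951 (34.7 to 1051), 48.3 for Batf2 (20.4 to 150.02) and 89.8 for Spib (24.5 to 747). The intervals cover counting error only. These genes passed the filter only through other groups and were picked as the highest in Combo2000. Their direction and the size of the ratios were thus set by the choice. In the other direction, picked in the same way, the clearest was Clca1, a secreted regulator of chloride channels, with 52 and 54 counts in IFN2000 and 1 and 0 in Combo2000. The next 4, at 12 to 19 counts in IFN2000, were unnamed transcript models (Gm42715, AC154328.1, 1700028E10Rik and Gm29668).

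Most of the change was also seen with Oxali alone. Oxali against Ctrl, which shares no library with this comparison, gave 8911 called genes (67.6% of those tested, 34.8% higher and 32.8% lower), and across the 13177 genes the log2 fold changes correlated with a Pearson's r of 0.86 (Spearman's rho 0.91). This is a description across genes, which are not independent and share the cell line and the study's 1 model. Of the 9522 genes called with IFNγ, 8052 were called without it (84.6% of the one set and 90.4% of the other), and 8023 of these had the same direction. Without IFNγ, Ccl9 changed by 5.08 on the log2 scale, Cps1 by -5.08, Nfkb2 by 1.98, Lamb3 by 3.95, C3 by 4.002, Etv5 by -2.67, Slc7a11 by -1.85, Rpl3 by -1.62 and Insig1 by -1.91. The difference between the effect with and without IFNγ was tested in the same model, and it was called for none of these 9 but Etv5 (-0.53, edgeR adjusted p = 0.047), with adjusted p = 0.0756 for Ccl9, 0.865 for Cps1 and 0.273 for Nfkb2.

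The effect of Oxali differed with and without IFNγ at 2000 pg for 359 genes, 2.72% of those tested, 280 of them in the positive direction (2.12%) and 79 in the negative (0.600%). The count was 217 with DESeq2 and lay between 102 (without Ctrl replicate 1) and 1035 (without IFN2000 replicate 3) when 1 library was left out. The split was 78.0% positive with TMM scaling, 59.0% with upper-quartile scaling and 67.2% with a correction for transcript length and GC content. Of the 26 genes of the IFNγ response list 16 were called, all in the positive direction, as were 10 of 20 class I genes and 7 of 19 antiviral genes. Gbp2 changed by 1.70 with Oxali alone and by 3.24 with IFNγ (edgeR adjusted p of the difference = 0.00827). The class I genes H2-K1 and B2m changed by 0.23 and 0.31 with Oxali alone and by 1.199 and 1.07 with IFNγ. Not all class I genes went this way. Psmb8 and Psmb9 changed by 3.896 and 3.446 with Oxali alone and by less, 2.781 and 2.59, with IFNγ. Of 19 class I genes above 3 counts at all 3 doses, the log2 fold change was higher with IFNγ at 2000 pg for 16. In the test of the difference no class I gene was called in the negative direction. Cd274 changed by 1.201 and 3.12 (difference 1.92, edgeR adjusted p = 0.000828). The 3 largest positive differences among genes with at least 1 log2 CPM were Gm12250, an immunity-related GTPase model, Cxcl10 and Mpeg1, a pore-forming protein of phagocytes. Mpeg1 was at 3.12 and 2.99 CPM in Ctrl, 2.49 and 2.48 CPM in Oxali, 10.1 and 10.3 CPM in IFN2000 and 51.9 and 54.4 CPM in Combo2000, a difference of 2.68 (edgeR adjusted p = 2.53e-06). In the NF-κB list 1 of 19 genes, Tnip1, differed, and in the p53 list 1 of 21, Sesn1. Single genes from lists of this size are no result about the lists beside the 2.72% over all genes.

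**Figure D4:**
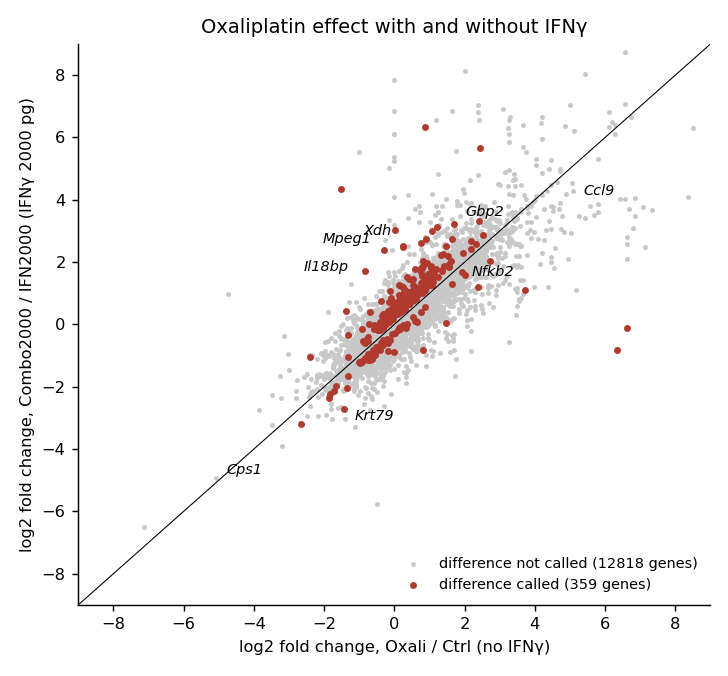
Log2 fold change with Oxali in the absence of IFNγ (x axis, Oxali over Ctrl) and in the presence of IFNγ at 2000 pg (y axis, Combo2000 over IFN2000) for the 13177 genes tested, with the line of equal change; the 359 genes whose difference was called are red. Most genes follow the line (Pearson's r 0.86), and Mpeg1, Il18bp, Xdh and Gbp2 lie above it.

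Against the lower IFNγ dose the order was not the same for all genes. Combo200 against IFN200 gave 9217 called genes (69.9%), and the effect at 2000 pg differed from that at 200 pg for 868 genes, 6.59% of those tested, 448 in the positive (3.40%) and 420 in the negative direction (3.19%). In the IFNγ response list 6 genes differed in the positive and 11 in the negative direction, and in the class I list 1 and 9. Psmb8 changed by 4.17 at 200 pg and by 2.78 at 2000 pg, Tap1 by 3.75 and 2.45, Nlrc5 by 3.98 and 2.55, and Igtp, an immunity-related GTPase, by 4.10 and 2.25. For these 4 genes the mean level in Combo2000 was still the highest of the groups: Tap1 was at 2.65 and 3.14 CPM in IFN200, 39.6 and 38.5 CPM in Combo200, 14.8 and 13.9 CPM in IFN2000 and 79.4 and 76.8 CPM in Combo2000. The smaller log2 change at 2000 pg thus went with a higher level before Oxali. Xdh, xanthine dehydrogenase, and Klhl24 went the other way, with a change of 1.28 at 200 pg and 2.52 at 2000 pg for Xdh (difference 1.25, edgeR adjusted p = 0.00139) and of 0.13 and 1.25 for Klhl24 (difference 1.13, edgeR adjusted p = 7.61e-05). Klhl24 was at 8.61 and 8.70 CPM in IFN2000 and between 19.2 and 28.5 CPM in the other 10 libraries. All 7 tested mitochondrial genes differed in the positive direction, by 0.66 to 0.82. The IFNγ doses share no library with each other. Their libraries include IFN200 replicate 1 (heart muscle reads), IFN2000 replicate 2 (T cell reads) and Combo200 replicate 3 (9 Ifng and 7 Gzmb counts). Without the first 110 genes differed and without the second 309, but the count was also 133 without Combo200 replicate 3, 201 without Combo2000 replicate 2 and 1929 without IFN2000 replicate 3.

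**Figure D5:**
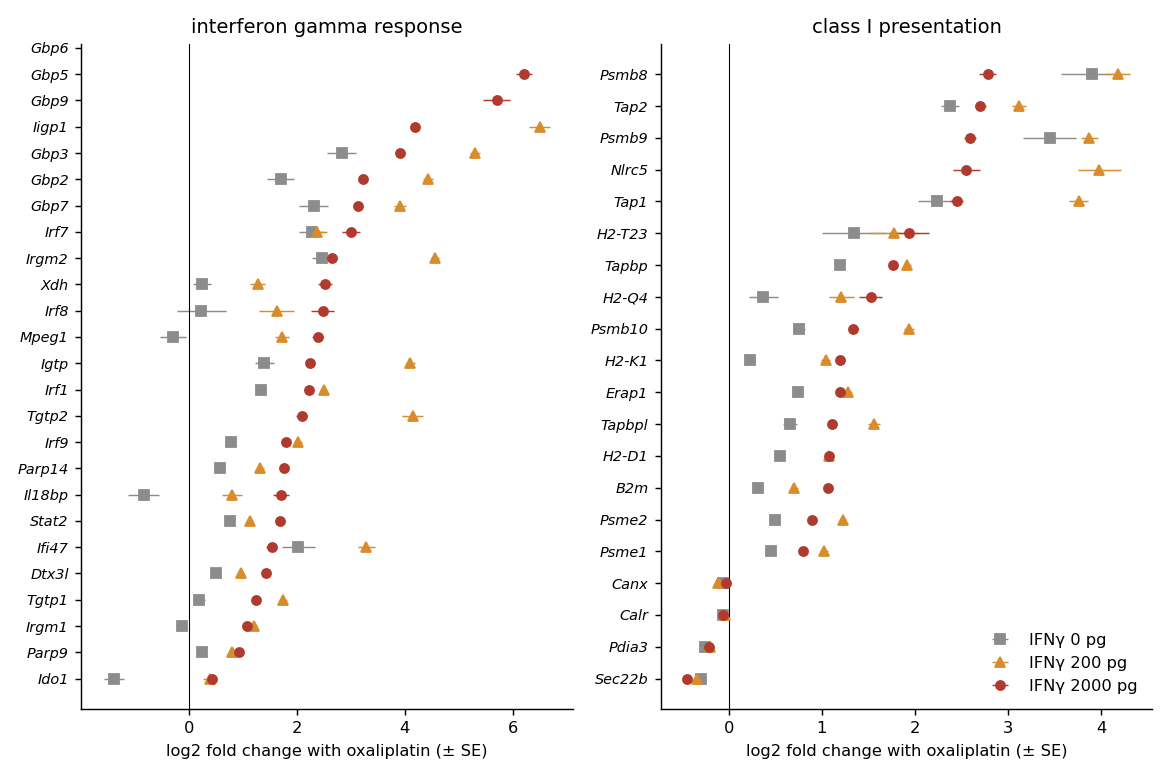
Log2 fold change with Oxali (x axis, bars are SE) for the tested genes of the IFNγ response (left) and class I (right) lists (y axis) without IFNγ (grey squares), with 200 pg (orange triangles) and with 2000 pg (red circles); changes for which either group had at most 3 counts in both libraries, and 1 IFNγ response gene, are not drawn. Of the 21 IFNγ response genes above that level at all 3 doses, the gene not drawn included, 20 changed by more at 2000 pg than without IFNγ and 10 by more at 2000 pg than at 200 pg; the class I counts are 16 and 5 of 19.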

How the data were processed

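RNA from Myc-CaP cells was sequenced from libraries of a stranded mRNA kit. The authors deposited 1 table of raw counts per gene symbol for all 12 libraries. Reads were aligned to GRCm38 with STAR 2.7.3a; the study's methods name featureCounts for counting, while the submitters' processing notes name RSEM 1.3.0. The counts are whole numbers and were used as deposited. The table held 55216 genes, 28300 of them without counts. Counts were scaled by TMM, filtered with filterByExpr (minimum count 10, minimum total count 15) and tested with the edgeR 4.0.16 quasi-likelihood test (R 4.3.3) on all 12 libraries with 1 mean per group. The call threshold was 0.05 on p-values adjusted by Benjamini and Hochberg for each contrast. SEs were taken as |log2 fold change| over √F. The smallest two-sided p of an exact permutation test of 2 against 2 libraries is 0.333. Differences between effects were contrasts in the same model. The code was tested on simulated counts.

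Members and lists were chosen with earlier results of these data known. Named were Ccl9, Cps1 and Nfkb2; the 10 genes that rose most and the 10 that fell most, if called, at 1 log2 CPM or more on average, with no overlap between the groups and a symbol that is not Gm plus digits, Rik or mt-; members that define a list and up to 4 called members with the largest change; the 3 largest differences each way; and up to 5 genes with at most 3 counts in each library of one group. Some genes that the rule names are not reported here. Other list members were named after their values were seen. Coordinates and transcript lengths are from GENCODE M21, promoters from RefSeq on GRCm38.p6. Alternatives were another scaling, other filters, DESeq2 1.42.0, fewer groups, a replicate block, a length and GC correction and each library left out.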

Additional observations from a re-analysis of the deposited data

Results flagged for a closer look

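Each of the following was marked because the effect of Oxali differed between IFNγ conditions by a test of the difference itself (edgeR, adjusted over 13177 genes). Between IFNγ at 2000 pg and no IFNγ the effect differed for 359 genes, and between 2000 pg and 200 pg for 868 genes. Values are differences of log2 fold changes.

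With against without IFNγ, Gm12250 had the largest difference, 5.85 (edgeR adjusted p = 4.62e-05). It was at 0.501 and 0.203 CPM in Ctrl, 0.985 and 0.714 CPM in IFN2000 and 16.9 and 17.7 CPM in Combo2000. In Oxali Gm12250 was at 0.138 and 0.0954 CPM, which is at or below 3 counts, so its difference depends on the fit. It was called under every alternative run, as was Mpeg1 (2.68, highest adjusted p 0.000737). Cxcl10 in Ctrl, at 0.223 and 0.101 CPM, was near the level of 3 counts (0.167 and 0.152 CPM). Cxcl10 differed by 3.22 (edgeR adjusted p = 0.0329), with 0.829 and 0.954 CPM in Oxali. It was not called with the replicate block (3.21) or without Combo2000 replicate 2, either Ctrl library, IFN2000 replicate 2 or either Oxali library, with a highest adjusted p of 0.447 and a value of 2.58 without Ctrl replicate 1. Krt79 differed by -1.30 and lost its call without Oxali replicate 2 (-1.22, adjusted p = 0.0697). Bc1, a brain cytoplasmic RNA, differed by -1.42 and was not called without Combo2000 replicate 2 (-1.27), Ctrl replicate 1 (-1.14) or Oxali replicate 1 (-1.19). Col16a1, a collagen chain, differed by -1.19 and was not called with DESeq2, with the replicate block or when any of 8 libraries was left out (all but Oxali replicate 1, IFN2000 replicate 3 and the IFN200 libraries), with the highest adjusted p, 0.25, without Ctrl replicate 1.

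Between the doses, Apol9a differed by -3.14 (adjusted p = 0.0319) and Iigp1 by -2.32 (adjusted p = 0.0011). Iigp1, at 0.217 and 0.177 CPM in IFN200 and 18.1 and 18.6 CPM in Combo200, was called under every alternative, with a highest adjusted p of 0.0312. Gm12185, a gene model, differed by -2.22 and Gm12250 by 1.59. Apol9a was not called with the 4 groups alone, with the replicate block or without Combo2000 replicate 2, Combo200 replicate 3, IFN2000 replicate 2 or either IFN200 library, where its value ran from -5.45 to -2.30. Gm12185 was not called with the replicate block or without Combo2000 replicate 2, either Combo200 library, IFN2000 replicate 2 or IFN200 replicate 1 (highest adjusted p 0.15), and Gm12250 was not called with the 4 groups alone, with the replicate block (adjusted p = 0.238) or without any 1 of the 10 libraries other than Ctrl. Xdh (1.25) and Klhl24 (1.13) were called under every alternative, with highest adjusted p of 0.0175 and 0.00335.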

How the results depend on the processing

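The count of genes called in Combo2000 against IFN2000, 9522, lay between 8656 and 9612 when 1 library was left out, and it was 574 when groups followed the agent label, which places other libraries in the groups. Over the 29 lists 405 of 457 tested members were called, and 381 to 404 without 1 library; of the named genes 139 were called, and 137 to 139 without 1 library. Where a group was left with 1 library, that library was assumed to vary like those of the other groups. The value of Bc1, 0.04 and not called, was 0.59 with the length and GC correction and 0.60 with that correction and the replicate block, both called. It ran from -0.11 (without Combo2000 replicate 3) to 0.18 (without Combo2000 replicate 2) and was -0.04 without IFN2000 replicate 2, and the cause was not tested.

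With against without IFNγ, 359 genes became 217 with DESeq2, 545 with the length and GC correction and 785 without a filter on low counts, and 102 to 1035 when 1 library was left out (102 without Ctrl replicate 1, 151 without Ctrl replicate 2, 155 without Combo2000 replicate 2, 190 and 194 without Oxali replicates 2 and 1, 198 without IFN2000 replicate 2, 218 and 226 without Combo200 replicates 3 and 2, and 1035 without IFN2000 replicate 3). The share in the positive direction, 78.0%, was 67.2% with the length and GC correction, 59.0% with upper-quartile scaling and 61.4% to 92.3% when 1 library was left out. Between the doses, 868 genes became 1320 without the filter, and 110 to 1929 when 1 library was left out (110 without IFN200 replicate 1, 133 and 282 without Combo200 replicates 3 and 2, 201 without Combo2000 replicate 2, 309 without IFN2000 replicate 2, 544 and 542 without Ctrl replicates 1 and 2, and 1929 without IFN2000 replicate 3). The causes were not tested.

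Across genes, the deviations of samples with the same replicate number showed little correlation (r = -0.046 for IFN2000 with Combo2000). This value cannot show whether such samples shared a batch or culture, because the difference between the IFN2000 replicates includes T cell reads. Shared handling was not tested. With the replicate block 266 genes differed with against without IFNγ and 236 between the doses, or 402 with the block and the length and GC correction. At 3 counts per library, changes of genes below 0.111 to 0.134 CPM were not detectable in these 4 libraries.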
